A study of Mus musculus with 6 samples.

Results

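The insulin-like growth factor (IGF) axis was examined through 9 genes, namely the ligand Igf1, the receptors Igf1r and Igf2r, and the binding proteins Igfbp2, Igfbp3, Igfbp4, Igfbp5, Igfbp6 and Igfbp7. These genes were taken by symbol from a table of 27179 genes, and all 9 were among the 14855 genes that passed the filter on low counts. RNA-seq counts came from cancer-associated fibroblasts (CAFs) of 3 raGFP-Wnt1 mammary tumors of female mice, with 1 CD34 negative and 1 CD34 positive library per tumor and 6 libraries in all. Both fractions carried the same alleles. The mice came from a cross of a Pdgfra reporter strain (C57BL/6) with the MMTV-Wnt1 strain (FVB/NJ). They were heterozygous for the reporter, in which the Pdgfra gene drives an H2B-GFP fusion. They also carried the MMTV-Wnt1 transgene, in which the mammary tumor virus promoter drives Wnt1 in mammary epithelium. The cells were sorted as GFP positive, and therefore as cells with Pdgfra promoter activity, and were then divided by CD34. No treatment was given, the age of the tumor-bearing mice was not stated in the sources used here, and whether the 3 tumors came from separate mice was not stated either.

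IGF1 is a secreted growth factor that stromal cells make in many tissues, the mammary gland included. It signals through the tyrosine kinase receptor IGF1R, whereas IGF2R removes IGF2 from the cell surface and carries lysosomal enzymes. The IGF-binding proteins hold IGFs in the extracellular space, where they can block or prolong access to the receptor, and several of them also bind matrix or cell surface proteins.

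In the CD34 negative CAFs, transcripts of Igfbp2, Igfbp3 and Igfbp7 were higher than in every CD34 positive library, Igfbp5 was lower within each tumor, and the ligand and both receptors overlapped between the fractions. Of all genes tested, 10.4% were likewise higher without overlap, and 46.3% had the same sign in the 3 tumors. For Igfbp3 the log2 ratio between the fractions was only 0.12 in tumor 1. With the tumor as a block, Igfbp2 and Igfbp7 rose, with log2 fold changes of 3.26 ± 0.61 (SE) and 1.01 ± 0.14, whereas no member passed the test without the block (limma-voom, Benjamini-Hochberg adjusted p under 0.05, 3 libraries per group). Igfbp3 and Igfbp5 did not pass with the block either (adjusted p = 0.0930 and 0.0717, limma-voom). In a single simulated data set the blocked limma-voom fit placed 16.8% of its calls on unchanged genes, more than the threshold allows. The call of Igfbp2 was lost in edgeR's quasi-likelihood fit with the same block (adjusted p = 0.0920), and that of Igfbp7 was kept (adjusted p = 0.0324). The summed level of the 6 binding proteins was 5582 ± 328 RPKM (counts scaled to library size and gene length) in CD34 negative and 3024 ± 877 RPKM in CD34 positive libraries (mean ± SD, n = 3 each), and these groups did not overlap. Without scaling to length they did, since the 6 genes held 1.16, 0.922 and 1.07% of all counts in the CD34 negative and 1.02, 0.547 and 0.705% in the CD34 positive libraries of tumors 1, 2 and 3.

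Sequencing depth ranged from 16238059 to 86609267 counts per library, and the smallest count of any member in any library was 656, for Igfbp2 in the CD34 positive library of tumor 3. Cd34 itself, the sorted marker, lay between 41.9 and 102 CPM (counts scaled to library size) in the CD34 negative and between 562 and 1604 CPM in the CD34 positive libraries. All 8 fibroblast markers had counts in every library, with a summed level of 67830 to 93960 CPM in CD34 negative and 77183 to 93942 CPM in CD34 positive libraries, and Pdgfra lay between 302 and 505 CPM throughout. Most of this sum came from Col1a1, Col1a2 and Col3a1, and with the tumor as a block Pdgfrb was called higher and Dcn and Lum lower in CD34 negative CAFs (log2 fold changes of 0.94, -1.12 and -0.73). The CD34 negative library of tumor 3 stood apart, with 14314 genes detected against 16253 to 19220 elsewhere. Its log2 CPM had a Pearson's r of 0.837 to 0.883 with the other libraries, against 0.961 between the CD34 negative libraries of tumors 1 and 2. It held the highest Igfbp3, at 3941 CPM. The CD34 positive library of tumor 3 held the lowest Igfbp2 and Igfbp3, at 23.1 and 336 CPM. Values without tumor 3 are therefore given beside the fold changes and shares that depend most on that tumor. They are not given for the summed binding protein level or its ratio to Igf1. In such bulk libraries, fewer cells of a type and less RNA per cell cannot be told apart.

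The promoters of the binding proteins that differed most between the fractions are shown first, since the genes belong to 1 family but differ in the sequence in front of their start sites. The stretches are the 100 bases before the annotated start (for Igfbp2, the first of 2), from RefSeq on GRCm38.p6, written 5′ to 3′ on the strand of the gene, and capitals mark the letters GGGCGG or their reverse complement (a GC box). They lie at chr1:72824380-72824479 on the plus strand for Igfbp2, chr5:77408046-77408145 on the minus strand for Igfbp7, chr11:7213924-7214023 on the minus strand for Igfbp3 and chr1:72874866-72874965 on the minus strand for Igfbp5.
Igfbp2: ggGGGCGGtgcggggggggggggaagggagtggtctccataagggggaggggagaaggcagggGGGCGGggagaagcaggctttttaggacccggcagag
Igfbp7: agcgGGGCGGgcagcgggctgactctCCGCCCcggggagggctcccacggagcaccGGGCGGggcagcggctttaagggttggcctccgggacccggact
Igfbp3: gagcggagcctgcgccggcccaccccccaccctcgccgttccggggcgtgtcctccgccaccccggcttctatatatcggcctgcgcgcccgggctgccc
Igfbp5: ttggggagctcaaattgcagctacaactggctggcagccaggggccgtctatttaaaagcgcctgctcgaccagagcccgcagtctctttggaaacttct

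The first 3 of these stretches were rich in G and C, at 71% for Igfbp2, 77% for Igfbp7 and 77% for Igfbp3, whereas Igfbp5 was at 55%, the median of all such stretches. This share was not computed for the other members, and its relation to the differences between the fractions was not tested. The stretch before the second start of Igfbp2 (chr1:72825287-72825386) was at 52% and held no GC box. In windows of 300 bases around the starts, searched on both strands, the GC box GGGCGG was present for 4 of 9 members (Igf1r, Igf2r, Igfbp2 and Igfbp7) and in 35.7% of all 32851 windows. The TATA box letters TATAAA were found for Igfbp4 and Igfbp6 and in 13.6% of windows, and the CCAAT box for Igf1 and Igfbp6 and in 37.4%. The E-box CACGTG, found in 7.15% of windows, was present for Igf2r and Igfbp2. None of these motifs overlaps another in its letters, and a match describes the letters only.

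The ligand gene Igf1 (gene 16000, chromosome 10, 87858265 to 87937047, GRCm38) was at 340, 194 and 359 CPM in the CD34 negative libraries of tumors 1, 2 and 3 and at 574, 323 and 352 CPM in the CD34 positive libraries. The groups overlapped, since the CD34 negative fraction was lower in tumors 1 and 2 and level with its partner in tumor 3. The log2 fold change, CD34 negative over CD34 positive, was -0.52 ± 0.31 (adjusted p = 0.481, limma-voom) and the 95% interval ran from -1.22 to 0.18. With the tumor as a block it was -0.49 ± 0.17 (adjusted p = 0.116), and Igf1 passed the test only in the blocked fit without tumor 3, at -0.76 (adjusted p = 0.00361). Here and below, a blocked fit without 1 tumor has only 1 residual degree of freedom per gene. Its calls therefore lean on the spread shared over genes.

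The other IGF ligand, Igf2, is no member of the set and was named after its values were seen. It was highest in both libraries of tumor 1, at 26.6, 2.41 and 6.13 CPM in CD34 negative and 54.4, 2.69 and 2.72 CPM in CD34 positive libraries, and its log2 fold change was 0.95 without and -0.63 with the block (adjusted p = 0.725 and 0.329, limma-voom).

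Igf1r (gene 16001, chromosome 7, 67952257 to 68233668) encodes the receptor through which IGF1 signals. It was measured at 58.9, 54.3 and 61.9 CPM in CD34 negative and at 62.5, 46.9 and 43.6 CPM in CD34 positive libraries. These groups overlapped, because the CD34 positive library of tumor 1 held the highest value. Between the fractions the log2 fold change was 0.24 ± 0.18 (adjusted p = 0.593, limma-voom), with a 95% interval of -0.18 to 0.66, and it was 0.067 without tumor 3.

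Igf2r (gene 16004, chromosome 17, 12682406 to 12769706), the receptor that clears IGF2, was at 238, 226 and 309 CPM in CD34 negative and at 278, 216 and 260 CPM in CD34 positive libraries. The libraries of the fractions were interleaved, and the log2 fold change of 0.02 ± 0.19 had an adjusted p of 0.975 (limma-voom). Its sign changed in 1 of 12 fits to all libraries and in 4 of 12 with 1 library or tumor omitted. The 95% interval of the blocked fit was -0.27 to 0.33. The gene overlaps the long noncoding RNA Airn on the genome, which received 1378 counts over the 6 libraries against 65180 for Igf2r. How overlapping reads were assigned was not stated.

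Igfbp2 (gene 16008, chromosome 1, 72824480 to 72852474) encodes a secreted binding protein of IGF1 and IGF2 whose promoter is shown above. It was at 2264, 2245 and 1480 CPM in CD34 negative and at 519, 564 and 23.1 CPM in CD34 positive libraries. Every CD34 negative library was therefore above every CD34 positive one, and the library at 23.1 CPM lay far below its group. The log2 fold change was 3.45 ± 1.19, with a 95% interval of 0.72 to 6.18, and did not pass the test (adjusted p = 0.249, limma-voom). With the tumor as a block it was 3.26 ± 0.61, with an interval of 1.89 to 4.63, and passed (adjusted p = 0.0121). The within-tumor log2 ratios were 2.13, 1.99 and 5.998, so that tumor 3 stood well above the others. Without tumor 3 the blocked value was 2.05 and still passed. The unblocked value was 1.86 without the CD34 positive library of tumor 3 and 3.66 without the CD34 negative library of tumor 3.

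**Figure D1:**
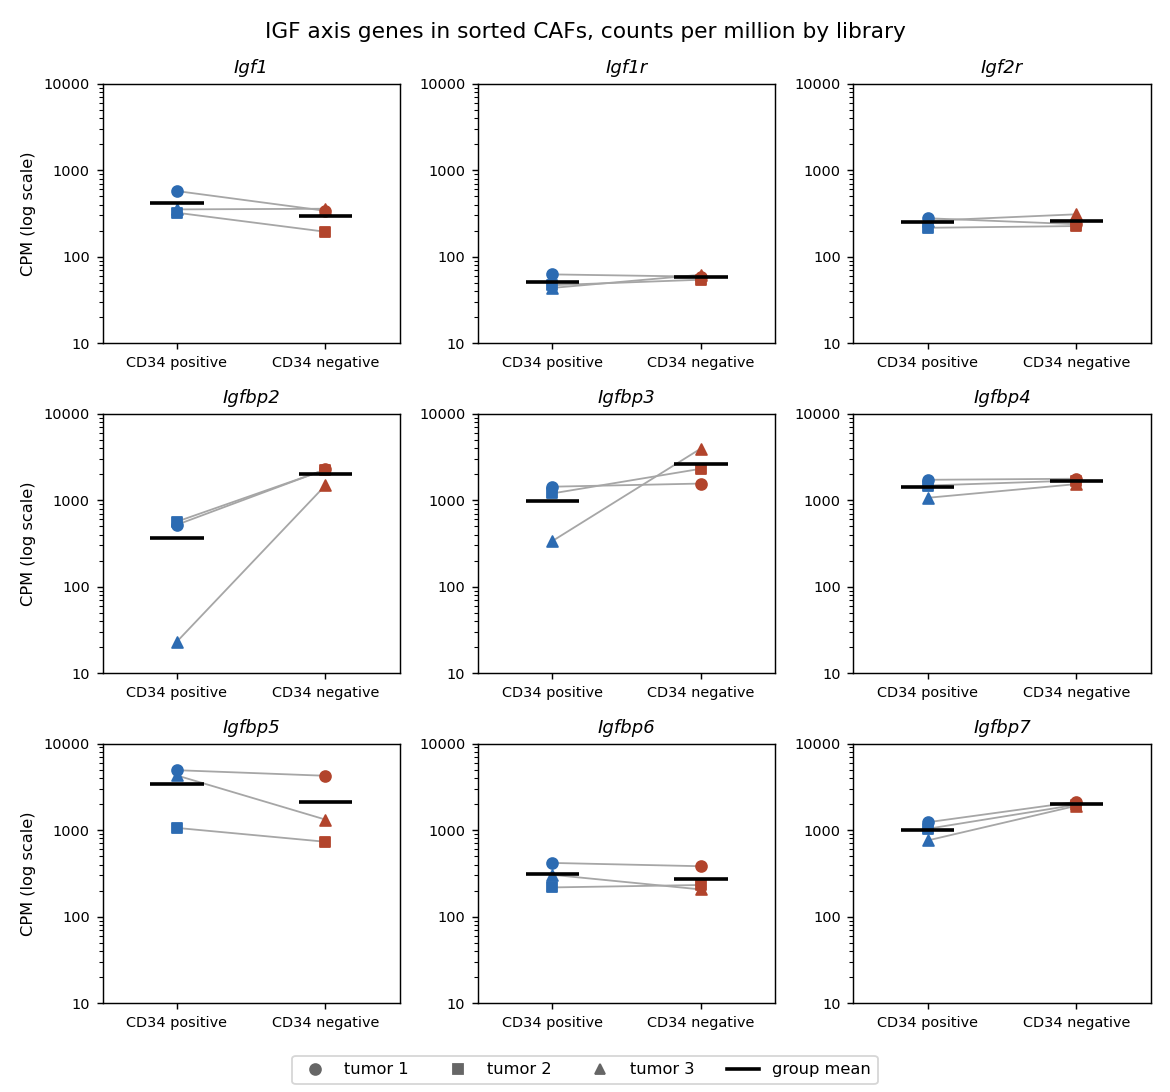
CPM on a log axis, the same in each panel, for the 9 IGF axis genes in CD34 positive (blue) and CD34 negative (red) CAF libraries, with grey lines joining the fractions of a tumor and black bars for the mean of 3 libraries. Igfbp2, Igfbp3 and Igfbp7 are the panels in which the fractions do not overlap, and Igfbp2 of the CD34 positive library of tumor 3 is at 23.1 CPM.

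Igfbp3 (gene 16009, chromosome 11, 7206086 to 7215498), the main carrier of IGFs in blood, was at 1554, 2303 and 3941 CPM in CD34 negative and at 1429, 1195 and 336 CPM in CD34 positive libraries. The groups did not overlap, but the lowest CD34 negative and the highest CD34 positive library, both of tumor 1, lay close together. The log2 fold change was 1.56 ± 0.58 without the block (adjusted p = 0.287, limma-voom) and 1.56 ± 0.50 with it (adjusted p = 0.0930). The within-tumor log2 ratios were 0.12, 0.95 and 3.55, so the difference rested largely on tumor 3. Without tumor 3 the value was 0.51 in both fits (adjusted p = 0.562 without and 0.102 with the block). The unblocked value was 0.88 without the CD34 positive library of tumor 3 and 1.20 without the CD34 negative library of tumor 3. The blocked fit called the gene without tumor 1, at 2.24, and without tumor 2, at 1.85.

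Igfbp7 (gene 29817, chromosome 5, 77349240 to 77408045) encodes a secreted, matrix-associated protein of the wider family that binds IGFs weakly. It was at 2120, 1962 and 1906 CPM in CD34 negative and at 1231, 1035 and 759 CPM in CD34 positive libraries. Its CD34 negative values were tightly grouped, with a coefficient of variation of 5.55% against 23.5% in the CD34 positive libraries, and the groups did not overlap. Its log2 fold change was 1.00 ± 0.23, with a 95% interval of 0.48 to 1.53 (adjusted p = 0.115, limma-voom). With the tumor as a block it was 1.01 ± 0.14 and passed the test, with an interval of 0.69 to 1.34 (adjusted p = 0.0036). The ratios were similar in the 3 tumors, at 0.78, 0.92 and 1.33 on the log2 scale. The blocked fit called the gene with any 1 tumor left out, although such fits have only 1 residual degree of freedom per gene. Igfbp7 overlaps Polr2b on the genome, which received 16858 counts against 406947 for Igfbp7.

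Igfbp5 (gene 16011, chromosome 1, 72858065 to 72874865) encodes a binding protein that associates with extracellular matrix and is known for its rise in the involuting mammary gland. It was at 4240, 733 and 1323 CPM in CD34 negative and at 4918, 1059 and 4278 CPM in CD34 positive libraries. The tumors differed as much as the fractions, with tumor 1 high and tumor 2 low in both, and so the groups overlapped although the CD34 negative library was the lower of its pair in 3 of 3 tumors. The log2 fold change was -0.94 ± 0.71 (adjusted p = 0.591, limma-voom) and -0.82 ± 0.24 with the tumor as a block (adjusted p = 0.0717). It ranged from -1.61 without the CD34 negative library of tumor 1 to -0.39 without that of tumor 2. In the blocked fit the value passed without tumor 1, at -1.11, or without tumor 2, at -0.99, and missed at -0.39 without tumor 3 (adjusted p = 0.0013, 0.0031 and 0.096).

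Igfbp2 and Igfbp5 are neighbours on chromosome 1, tail to tail, with 5590 bases and no annotated gene between them. Their levels moved in opposite directions in each tumor. The ratio of Igfbp2 to Igfbp5, per length, was 2.35, 13.5 and 4.93 in CD34 negative and 0.464, 2.34 and 0.0238 in CD34 positive libraries of tumors 1, 2 and 3. It was thus higher in the CD34 negative library of every tumor, and the groups nearly overlapped, at 2.35 and 2.34. Igfbp3 has Igfbp1 as its neighbour on chromosome 11, 3539 bases away, and Igfbp1 had 0 counts in all 6 libraries, which allows up to 3 counts in each.

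Igfbp4 and Igfbp6, binding proteins with a preference for IGF2 in the case of Igfbp6, differed less. Igfbp4 (gene 16010, chromosome 11, 99040005 to 99052655) was at 1766, 1684 and 1531 CPM in CD34 negative and at 1718, 1475 and 1064 CPM in CD34 positive libraries, with a log2 fold change of 0.24 ± 0.23 (adjusted p = 0.670, limma-voom). It was slightly higher in the CD34 negative library of each tumor, the groups overlapped, and the value was 0.087 without tumor 3. Igfbp6 (gene 16012, chromosome 15, 102144186 to 102149512) was at 382, 232 and 206 CPM in CD34 negative and at 417, 217 and 304 CPM in CD34 positive libraries, with a log2 fold change of -0.25 ± 0.30 (adjusted p = 0.751, limma-voom). Its groups overlapped, its order within the pair differed between tumors, and the value was -0.10 without tumor 3.

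**Figure D2:**
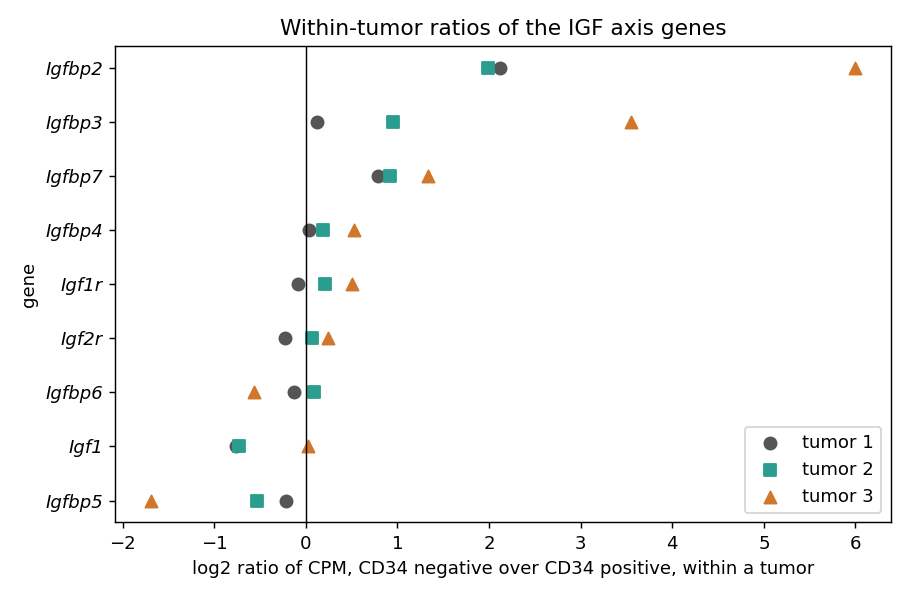
Log2 ratio of CPM, CD34 negative over CD34 positive, within each of the 3 tumors for the 9 genes, with 1 symbol per tumor and a line at equal levels. Tumor 3 holds the largest ratio of Igfbp2 (5.998) and Igfbp3 (3.55) and the lowest ratio of Igfbp5 (-1.69), while the 3 ratios of Igfbp7 lie between 0.78 and 1.33.

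Of the 9 members, 0 passed the test without the block, where 0.121% of all genes tested passed, and 3 had an unadjusted p under 0.05 (Igfbp2, Igfbp3 and Igfbp7), as had 14.3% of all genes. With the tumor as a block, 2 of 9 passed, both higher in CD34 negative CAFs, beside 4.32% of all genes called higher and 8.57% called in either direction. The blocked fit called 4 of 9 (Igfbp2, Igfbp3, Igfbp5 and Igfbp7) without tumor 1, beside 7.61% of all genes, and the same 4 without tumor 2, beside 5.82%. Without tumor 3 it called 3 of 9 (Igf1, Igfbp2 and Igfbp7), beside 13.0% of all genes. The groups did not overlap for 3 of 9 members, each higher in CD34 negative CAFs, against 10.4% of all genes that did not overlap in that direction. The 3 tumors had the same sign for 5 of 9 members, all of them binding proteins, against 46.3% of all genes. The median log2 fold change of the members was 0.24 without and 0.22 with the block, beside -0.03 and -0.01 for all genes tested.

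**Figure D3:**
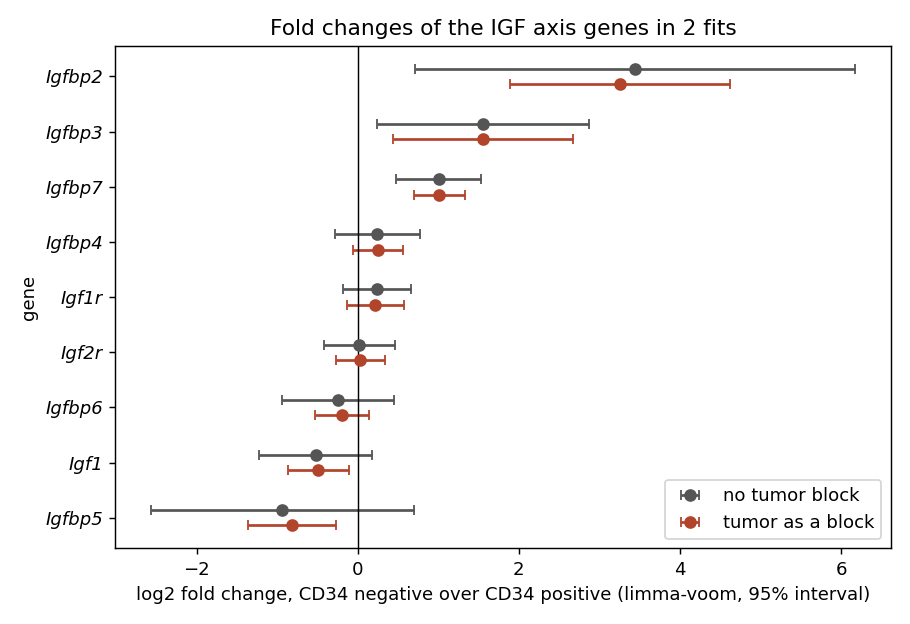
Log2 fold change, CD34 negative over CD34 positive, with its 95% interval for the 9 genes from limma-voom without (grey) and with (red) the tumor as a block. The intervals, which are not adjusted for the number of genes, lie above 0 in both fits for Igfbp2, Igfbp3 and Igfbp7, and below 0 with the block only for Igf1 (-0.87 to -0.11) and Igfbp5 (-1.36 to -0.28).

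Levels were compared between genes only per length, as RPKM (CPM divided by the deposited gene length in kilobases). In CD34 negative CAFs the mean order was Igfbp7 at 1646 ± 91.3 RPKM, Igfbp2 at 1501 ± 336, Igfbp3 at 1062 ± 499, Igfbp4 at 803 ± 57.7, Igfbp5 at 358 ± 321, Igfbp6 at 212 ± 73.7, Igf1 at 38.1 ± 11.5, Igf2r at 28.9 ± 5.04 and Igf1r at 4.87 ± 0.319 RPKM (SD, n = 3). Neighbours in this order overlapped in their ranges except Igfbp4 and Igfbp5, Igfbp6 and Igf1, and Igf2r and Igf1r. In CD34 positive CAFs it was Igfbp7 at 831 ± 196 RPKM, Igfbp4 at 686 ± 160, Igfbp5 at 584 ± 353, Igfbp3 at 403 ± 235, Igfbp2 at 277 ± 226, Igfbp6 at 243 ± 77.7, Igf1 at 53.3 ± 17.6, Igf2r at 28.2 ± 3.59 and Igf1r at 4.26 ± 0.843 RPKM. There the 6 binding proteins overlapped from each to the next, and the last 4 genes in the order did not. Igfbp2 moved from the second place to the fifth between the fractions, and both orders of the means ended with the ligand and the receptors. In the CD34 positive library of tumor 3, however, Igfbp2 was at 17.4 RPKM, below Igf1 at 45.1 and Igf2r at 29.2 RPKM.

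Relative to Igf1, the binding protein transcripts were more abundant in CD34 negative CAFs. The summed RPKM of the 6 binding proteins was 137, 216 and 118 times that of Igf1 in CD34 negative and 54.2, 68.5 and 50.2 times in CD34 positive libraries, with no overlap between the groups and no test made. By counts without length these ratios were 36.3, 47.1 and 29.0 against 17.8, 17.2 and 19.2. The ratio of Igf2r to Igf1r was 5.42, 5.59 and 6.71 in CD34 negative and 5.97, 6.17 and 8.01 in CD34 positive libraries, and these groups overlapped.

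In the make-up of the binding protein transcripts per length, the means differed most for Igfbp2, whereas by CPM without length they differed most for Igfbp5, at -25.1 percentage points. Per length, Igfbp2 formed 28.6, 31.5 and 20.5% of the summed binding protein RPKM in CD34 negative and 9.79, 15.0 and 0.769% in CD34 positive libraries, a difference of the means of 18.3 percentage points. Igfbp4 formed 14.4% ± 0.763 in CD34 negative and 22.9% ± 2.19 in CD34 positive libraries (SD, n = 3), and Igfbp6 3.76% ± 1.07 and 8.18% ± 2.23. Neither gene overlapped between the groups in its share, although both overlapped in level, a share depending also on the levels of the other 5 genes. Igfbp5 formed 6.22% ± 5.22 and 19.9% ± 13.0, and Igfbp3 19.3% ± 9.65 and 12.7% ± 5.85, with overlap in both cases. Without tumor 3 the difference of the mean share, CD34 negative minus CD34 positive, went from 6.63 to -1.87 percentage points for Igfbp3, from -13.7 to -6.50 for Igfbp5 and from -4.42 to -2.88 for Igfbp6. The share of Igfbp7 was nearly the same in all libraries, at 29.5% ± 0.590 and 27.8% ± 2.34. These shares are descriptions of 3 libraries per group and were not tested.

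**Figure D4:**
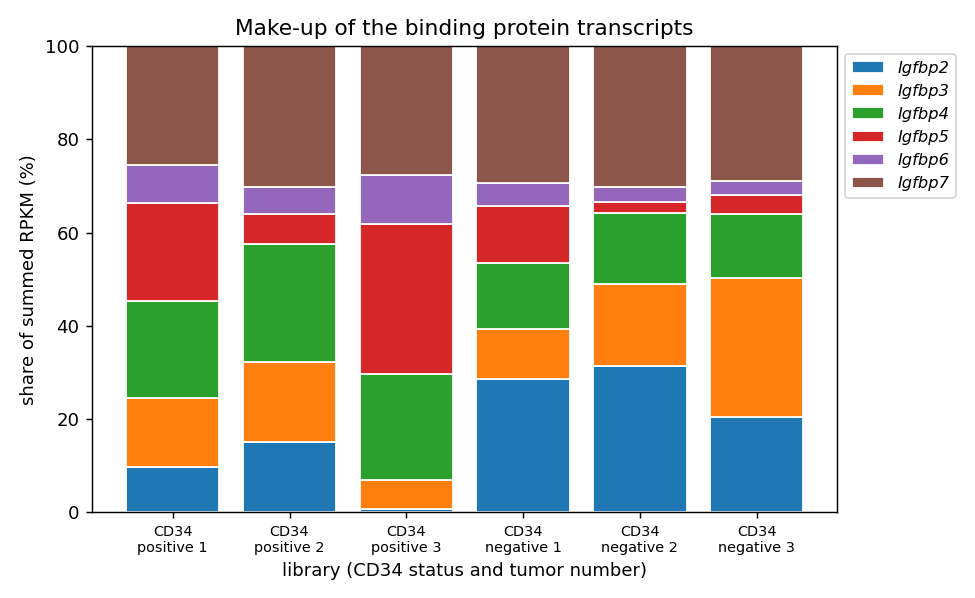
Share of each of the 6 binding protein genes in their summed RPKM (%), as stacked bars for each of the 6 libraries, which are named by CD34 status and tumor number. Igfbp2 is the lowest segment, with 20.5 to 31.5% in CD34 negative and 0.769 to 15.0% in CD34 positive libraries, and Igfbp7 is the top segment in each bar.

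Among 8943 expressed genes, those with the pattern most like each member over the 6 libraries were found by Pearson's r of log2 CPM, which is given without a test because the 6 points share tumors and libraries and many genes reach high values. For Igfbp2 these were Epb41l4b (r = 0.996), Fmod (0.995) and Serpine2 (0.994), and 115 genes exceeded 0.95. For Igfbp7 they were Plk3 (0.996), Pmepa1 (0.996) and Nacc2 (0.995), with 154 genes above 0.95. Igfbp3 was followed most closely by Myl9 (0.997), which encodes a myosin light chain of contractile cells, Elmod2 (0.997) and Dennd4a (0.987). Of the genes most like Igfbp5, Arrdc3 reached 0.994 and Arhgap17 0.992, with 26 genes above 0.95. The nearest genes of Igfbp4 were Tead2, the keratin gene Krt18 and Ak5, and those of Igfbp6 were Slc35d1, Prmt9 and Fbxo11. Igf1 was nearest to Cryz (0.988), Bambi (0.984) and Ecpas (0.983), and only 15 genes exceeded 0.95. Igf1r was nearest to Camk2n1, N4bp1 and Arhgef6, and Igf2r to Luc7l2, Usp34 and Ankhd1. Among the members, Igfbp2 and Igfbp7 had an r of 0.920, Igfbp5 and Igfbp6 of 0.893, Igf1 and Igfbp5 of 0.741, and Igfbp3 and Igfbp5 of -0.527.

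Of 37 other genes of the pathway, 32 could be tested, and 0 passed without the block, and 4 had an unadjusted p under 0.05 (limma-voom), beside 14.3% of all genes. With the block 3 were called higher and 1 lower, beside 8.57% of all genes in either direction. Their median log2 fold change was 0.14 without and 0.15 with the block. Among 8 genes for proteases that cleave binding proteins and their inhibitors, 1 rose, Stc2, whose product stanniocalcin 2 inhibits the protease PAPP-A. Stc2 was at 73.7, 62.1 and 22.9 CPM in CD34 negative and 38.2, 32.8 and 8.96 CPM in CD34 positive libraries, with a log2 fold change of 1.07 ± 0.59 (adjusted p = 0.450, limma-voom) and 0.99 ± 0.17 with the block (adjusted p = 0.00788). Its groups overlapped, and each CD34 negative library was above its partner. Pappa, which encodes that protease and was named after its values were seen, was at 60.1 CPM in the CD34 negative library of tumor 3 and between 5.52 and 16.5 CPM in the other 5.

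Among 5 genes of the growth hormone input, 1 rose with the block. This was Ghr, the growth hormone receptor upstream of IGF1 production, at 122, 102 and 168 CPM in CD34 negative and 111, 56.5 and 74.0 CPM in CD34 positive libraries, with a blocked log2 fold change of 0.75 ± 0.19 (adjusted p = 0.039, limma-voom) and 0.76 ± 0.28 without the block (adjusted p = 0.283). The CD34 negative library was the higher in each tumor, although the groups overlapped. Ghr no longer passed in the blocked fit without tumor 2, at 0.67 (adjusted p = 0.0810, limma-voom), or without tumor 3, at 0.50 (adjusted p = 0.0886). The other 3 called genes passed with any 1 tumor left out, in fits with only 1 residual degree of freedom per gene.

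Among 15 genes of signal transduction below the receptor, 1 rose and 1 fell with the block. Grb10, an adaptor that restrains insulin and IGF1 receptor signalling, fell, at 169, 72.4 and 196 CPM in CD34 negative and 300, 209 and 400 CPM in CD34 positive libraries. Its groups did not overlap, and the log2 fold change was -1.16 ± 0.39 (adjusted p = 0.244, limma-voom) and -1.12 ± 0.15 with the block (adjusted p = 0.00312). Foxo3, a transcription factor held out of the nucleus by this pathway, was at 81.4, 37.2 and 48.7 CPM in CD34 negative and 45.5, 19.8 and 19.2 CPM in CD34 positive libraries. It was higher in the CD34 negative library of each tumor, at 1.19 ± 0.38 (adjusted p = 0.212, limma-voom) and 1.00 ± 0.17 with the block (adjusted p = 0.00793). Of the 4 tested genes for other ligands, receptors and binding partners, 0 passed with the block.

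Markers of other cell types also differed between the fractions or between single libraries. The 8 pericyte and smooth muscle markers, all with counts in every library, summed to 221 to 248 CPM in CD34 negative and 89.0 to 196 CPM in CD34 positive libraries, without overlap, as for Igfbp7, Igfbp2 and Igfbp3. With the block, 4 of the 8 were called higher (Cspg4, Notch3, Mcam and Des) and 2 lower (Abcc9 and Kcnj8), beside 4.32% of all genes called higher and 8.57% in either direction. Rgs5 was between 0.247 and 10.7 CPM. The 8 epithelial markers, also with counts in every library, summed to 59.8 to 170 CPM in CD34 negative and 20.6 to 147 CPM in CD34 positive libraries. The lowest sum was in the CD34 positive library of tumor 3, which also held the lowest Igf1r, Igfbp2, Igfbp3, Igfbp4 and Igfbp7. That library held the highest Cd34 as well, at 1604 CPM. The next lowest epithelial sum, 59.8 CPM, was in the CD34 negative library of tumor 3, which held the highest Igfbp3, at 3941 CPM. The 7 endothelial markers summed to 15.6 to 33.3 and 55.8 to 123 CPM, the higher range being that of the CD34 positive libraries. Most of that higher range was Tek alone, at 5.44 to 13.4 CPM in CD34 negative and 48.8 to 116 CPM in CD34 positive libraries. Like Tek, Kdr was lower in the CD34 negative library of each tumor, whereas Cdh5 and Esam were higher in each and Pecam1 was mixed. Cdh5, Emcn and Cldn5 were at 0 in at least 1 library. The part of these cell types in the differences of Igfbp2, Igfbp3, Igfbp5 and Igfbp7 was not tested.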

How the data were processed

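Polyadenylated RNA was sequenced from 6 libraries of sorted CAFs, 3 per group, and the authors aligned the reads to GRCm38 (mm10) and counted them per gene with featureCounts. The strand setting was not given in the sources used here. The deposited values are raw counts with a gene length column. The 1310 rows without a symbol are genes and were kept, 6787 genes had no count, and filterByExpr (minimum count 10) left 14855. Counts were scaled by TMM (edgeR 4.0.16) and tested with limma 3.58.1 (voom, R 4.3.3), two-sided, with Benjamini-Hochberg adjustment over all genes tested and a threshold of 0.05. CPM here were scaled by the library total times the TMM factor, and RPKM are CPM divided by the deposited length in kilobases.

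Libraries of the same tumor form pairs, since both fractions were sorted from it. Their deviations from the group means correlated at 0.373, 0.350 and 0.219 in tumors 1, 2 and 3, and the fit with the tumor as a block is printed beside a result where it changes the call. DESeq2 1.42.0 and edgeR's quasi-likelihood test were alternatives. The limma-voom, edgeR and DESeq2 fits, with and without the block, were tested on simulated data, where all 3 tools with the block, and DESeq2 without it, gave unchanged genes a larger share of the calls than the threshold allows. With the block this share was 16.8% for limma-voom, 8.29% for edgeR and 26.9% for DESeq2, and it was 6.5% for DESeq2 without the block. These shares come from a single draw, in which fewer genes were changed than the blocked fit called in the real data. They therefore do not fix the error rate of any fit. Depth of at least 16238059 counts per library leaves counting error small for all members, so that precision is limited by 3 tumors.

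Every member was named, as were pathway genes called with the block (up to 4 per direction and role) and the 3 genes most like each member, of which 1 is not reported here. The members and lists were chosen with earlier results of these data known. Among the marker lists not described above, the summed level in CD34 negative and CD34 positive libraries was 22.4 to 24.5 and 13.1 to 23.9 CPM for 8 immune markers, 0.872 to 8.03 and 0.557 to 1.30 CPM for 4 erythroid markers, 7.56 to 17.8 and 11.3 to 18.3 CPM for 4 Schwann cell markers, and at most 0.882 CPM for 4 adipocyte markers. Promoters were matched to RefSeq by symbol for 9 of 9 members.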

Additional observations from a re-analysis of the deposited data

How the results depend on the processing

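The count of called members was 0 in limma-voom without the block, 1 with DESeq2 and 2 with the replicate block. It was 1 with edgeR's quasi-likelihood test and 3 with DESeq2 under the replicate block (Igfbp2, Igfbp5 and Igfbp7), and 4, 4 and 3 in the blocked limma-voom fit without tumor 1, 2 or 3. Over all genes the count was 18, and it became 9 with edgeR's quasi-likelihood test, 698 with DESeq2, 161 with library quality weights, 1273 with the replicate block, 575 and 1733 with edgeR and DESeq2 under that block, 1134, 851 and 2019 in the blocked fit without tumor 1, 2 or 3, and 0 to 86 when 1 library or tumor was left out of the unblocked fit. Other pathway genes went from 0 to 4 with the replicate block, 3 and 5 with edgeR and DESeq2 under it, and 7, 4 and 7 in the blocked fit without tumor 1, 2 or 3. Fits that leave out a tumor and keep the block have only 1 residual degree of freedom per gene and lean on the spread shared over genes. The log2 fold change of Igf2r turned to -0.13 with quality weights and to -0.094 in the blocked fit without tumor 3, and ran from -0.13 to 0.16 when a library or tumor was left out. That of Igfbp6 ran from -0.51 to 0.0055 in the same fits. Over 12 fits to all libraries, Igfbp2 ranged from 2.42 to 3.83, Igfbp3 from 1.38 to 1.56, Igfbp5 from -1.29 to -0.70 and Igfbp7 from 0.97 to 1.03, and Igfbp2 missed the threshold in the blocked edgeR fit (adjusted p = 0.092). By CPM without length, the share differences were 13.8 percentage points for Igfbp2, -3.89 for Igfbp4, -1.63 for Igfbp6, 5.02 for Igfbp7, 11.7 for Igfbp3 and -25.1 for Igfbp5. With 1 tumor left out, the share difference per length ran from -1.87 to 12.0 for Igfbp3, -18.5 to -6.50 for Igfbp5 and 0.652 to 2.59 for Igfbp7. The causes were not tested.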
